A study of Mus musculus with 18 samples.

Results

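The suppressors of cytokine signaling (SOCS) are 8 proteins in the mouse, encoded by Socs1 to Socs7 and Cish. The members are these 8 genes, found by symbol, each on 1 row, among the 50600 genes of the deposited table, and all 8 passed the filter that left 16927 genes for testing. RNA was sequenced from whole B16F10 tumors, a transplanted mouse melanoma line grown under the skin of female C57BL/6 mice that were 5 to 6 weeks old when purchased. The tumors received intratumoral (IT) injections of CDN2, a synthetic cyclic dinucleotide that activates STING, either free or loaded into extracellular vesicles (exoCDN2).

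Each of 9 groups held 2 tumors. After 1 dose the groups were PBS, unloaded EVs, exoCDN2 (0.1 µg), free CDN2 (20 µg) and free CDN2 (100 µg). After 2 doses, given 3 days apart, they were PBS, exoCDN2 (0.1 µg), free CDN2 (20 µg) and free CDN2 in an amount that the sample labels do not give. No group carried an engineered allele, the vesicles came from the human HEK293 line, and every tumor was collected 24 h after its last dose. The study describes the tumors of a group as biological replicates, without naming the 100 µg or unlabelled amounts. The labels tie no tumor to a mouse, and the p-values measure the spread between these tumors. Each value is a mixture of tumor, stromal and immune cells, so fewer cells of a type and less RNA per cell cannot be told apart.

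SOCS proteins are induced by the cytokine pathways that they then restrain. A cytokine receptor activates JAK kinases, the kinases activate STAT transcription factors, and STATs switch on target genes that include SOCS genes. Each SOCS protein carries an SH2 domain that binds phosphorylated receptors or kinases, and a SOCS box that recruits elongins and a cullin to mark the bound protein for degradation. SOCS1 and SOCS3 can also block JAK kinase activity directly. SOCS1 is best known as the brake on interferon signaling, SOCS3 as the brake on IL-6 family cytokines and G-CSF, and CIS (the product of Cish) and SOCS2 as brakes on cytokines that use STAT5. SOCS4 to SOCS7 are less well understood and have been linked to growth factor and insulin receptors.

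The regulatory sequence at the start of the 3 members with a searched motif is shown because these motifs are the classes of site that interferon-activated and cytokine-activated STATs bind. RefSeq promoter windows (GRCm38.p6, 250 bases before to 50 after the start site) were searched on both strands for 4 of the 8 members. These were Socs1, Socs3, Socs4 and Cish. The 2 motifs were GAS (TTCNNNGAA, its own reverse complement in form) and an ISRE core written as GAAA, any 2 bases, GAAA. Capitals mark the matches, and each sequence runs 5′ to 3′ on the strand of its gene.
Socs1, 175 bases before the start site, chr16:10785537-10785711, minus strand: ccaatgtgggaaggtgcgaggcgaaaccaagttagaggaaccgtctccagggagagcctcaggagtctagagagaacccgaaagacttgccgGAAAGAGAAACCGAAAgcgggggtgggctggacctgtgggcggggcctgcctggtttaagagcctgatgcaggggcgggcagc
Socs3, 175 bases before the start site, chr11:117969367-117969541, minus strand: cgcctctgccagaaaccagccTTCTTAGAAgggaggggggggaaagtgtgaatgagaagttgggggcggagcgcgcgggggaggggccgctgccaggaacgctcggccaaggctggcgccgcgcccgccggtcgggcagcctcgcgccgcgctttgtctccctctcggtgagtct
Cish, 30 bases around the start site, chr9:107296654-107296683, plus strand: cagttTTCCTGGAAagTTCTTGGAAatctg

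The Socs1 window held 2 overlapping ISRE cores, GAAAGAGAAA at -83 to -74 and GAAACCGAAA at -77 to -68 from the start site, and no GAS. The Socs3 window held 1 GAS at -154 to -146, and the Cish window held 2, at 1 to 9 and 12 to 20. The Socs4 window held neither motif. Among all 32851 windows of the same length, 8.3% held a GAS and 3.44% held an ISRE core, and the matches are descriptions of the letters only. No GENCODE feature overlapped the Socs1 stretch. The Socs3 stretch overlapped an exon of a noncoding Socs3 transcript, and the Cish stretch lay in the 5′ untranslated part of a longer Cish transcript.

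Total expected counts ran from 21608895 to 65983630 per tumor, and the Pearson correlation of log2 CPM between the 2 tumors of a group from 0.949 to 0.993. Tumor 1 of CDN2 (20 µg) after 2 doses stood apart. It had the lowest total, and 27.2% of the tested genes differed more than 2-fold from its partner. Summed melanocyte markers were 7210 CPM in that tumor and 12500 CPM in its partner, against 14500 to 24500 CPM in the other 16, and no listed melanocyte marker was at 0 in any tumor. Summed neutrophil markers were 834 and 189 CPM (58.7 CPM at most elsewhere), and summed skeletal muscle markers 3580 and 1830 CPM (491 CPM at most elsewhere). The part of these markers in the results of that group was not tested, and values without tumor 1 stand beside the results that changed without it.

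Levels below are in CPM, counts scaled to a common library size with TMM factors, and give tumor 1 before tumor 2. An exact permutation test of 2 against 2 tumors cannot go below p = 0.333, so groups that lie apart are described only. Socs1 (ENSMUSG00000038037, chr16:10782240-10785536, minus strand) had the widest range of the family, with a 53.6-fold ratio between its highest and lowest group means. After 1 dose it was at 5.86 and 8.04 CPM with PBS and at 4.15 and 3.32 CPM with unloaded EVs. ExoCDN2 gave 47.8 and 61.5 CPM, CDN2 (20 µg) 49.2 and 78.4 CPM, and CDN2 (100 µg) 21.7 and 27.4 CPM. All 6 tumors given CDN2 in any form exceeded all 4 tumors that were not, and the 100 µg tumors lay below those given 20 µg. After 2 doses Socs1 was at 0.980 and 1.40 CPM with PBS (48 and 64 counts), 26.2 and 14.0 CPM with exoCDN2, 40.8 and 16.1 CPM with CDN2 (20 µg), and 7.97 and 9.08 CPM in the group of unlabelled amount. No PBS tumor overlapped the treated ones, and the exoCDN2 and CDN2 (20 µg) tumors overlapped each other.

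Socs3 (ENSMUSG00000053113, chr11:117966079-117970047, minus strand) followed with an 8.80-fold ratio of group means. After 1 dose it was at 20.3 and 21.9 CPM with PBS, 24.99 and 17.7 CPM with unloaded EVs, 85.7 and 85.0 CPM with exoCDN2, 57.9 and 103.5 CPM with CDN2 (20 µg), and 45.9 and 53.9 CPM with CDN2 (100 µg). The treated tumors again lay above every control tumor. After 2 doses it was at 13.3 and 15.2 CPM with PBS, 65.8 and 37.1 CPM with exoCDN2, 183 and 67.8 CPM with CDN2 (20 µg), and 26.0 and 25.9 CPM in the group of unlabelled amount. The highest value of the series was that of CDN2 (20 µg) tumor 1, and its partner lay just above exoCDN2 tumor 1.

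The 2 members tied to STAT5 were at low levels. Cish (ENSMUSG00000032578, chr9:107296026-107302784, plus strand) was at 2.08 and 1.94 CPM with PBS, 2.40 and 2.55 CPM with unloaded EVs, 9.16 and 8.92 CPM with exoCDN2, 9.22 and 13.5 CPM with CDN2 (20 µg), and 6.61 and 5.74 CPM with CDN2 (100 µg), all after 1 dose. After 2 doses it was at 2.02 and 2.43 CPM with PBS, 4.48 and 2.73 CPM with exoCDN2, 15.3 and 4.38 CPM with CDN2 (20 µg), and 2.23 and 1.89 CPM in the group of unlabelled amount. The first dose separated treated from control tumors, whereas after 2 doses only the group of unlabelled amount overlapped PBS and the exoCDN2 tumors came close to it. The exons of 2 genes on the opposite strand, Gm17040 and Gm17041, overlap Cish, and neither had more than 1 count in any tumor.

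Socs2 (ENSMUSG00000020027, chr10:95385362-95417180, minus strand) was at 3.72 and 3.35 CPM with PBS, 3.89 and 4.12 CPM with unloaded EVs, 16.2 and 15.2 CPM with exoCDN2, 7.98 and 10.6 CPM with CDN2 (20 µg), and 12.6 and 11.2 CPM with CDN2 (100 µg) after 1 dose. Here exoCDN2 gave the highest group, above CDN2 at both amounts, and its difference from CDN2 (20 µg) was not called. After 2 doses it was at 4.73 and 3.15 CPM with PBS, 5.34 and 3.92 CPM with exoCDN2, 11.8 and 5.81 CPM with CDN2 (20 µg), and 4.41 and 5.09 CPM in the group of unlabelled amount. The exoCDN2 tumors then overlapped PBS, and only the CDN2 (20 µg) tumors lay above it. The plot of Socs1, Socs3, Socs2 and Cish by tumor shows these patterns side by side.

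**Figure D1:**
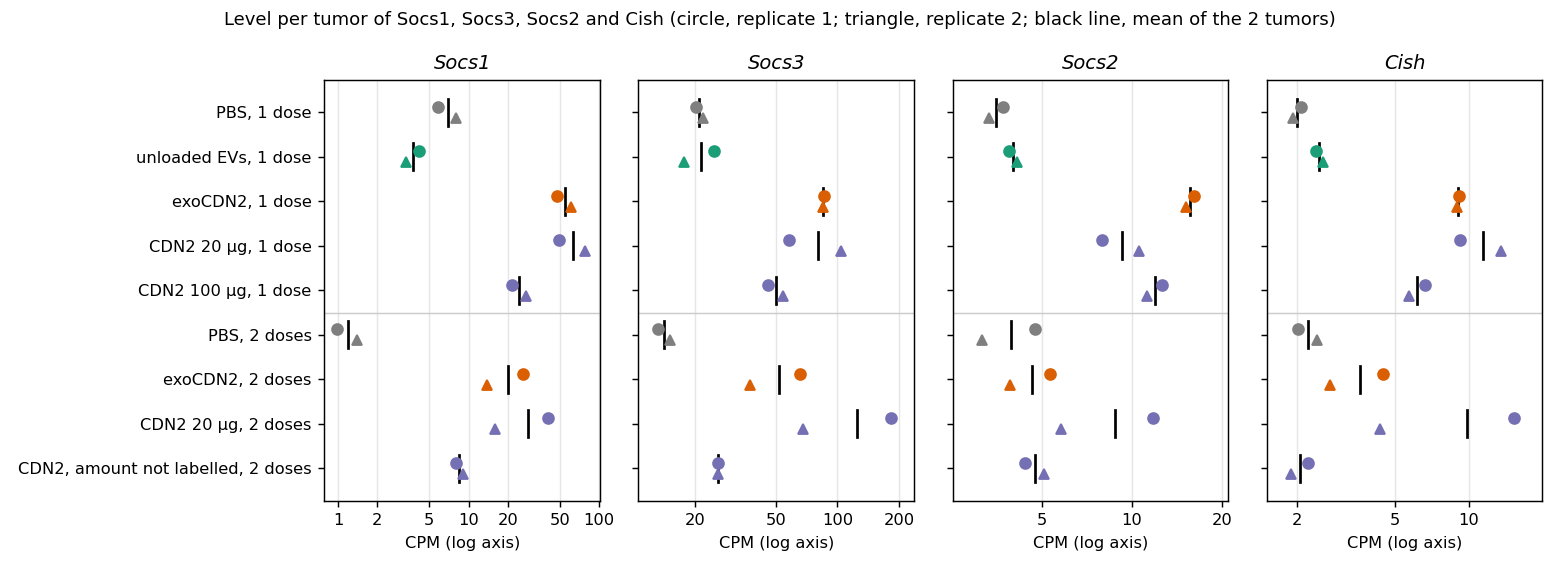
Level of Socs1, Socs3, Socs2 and Cish in each of 18 tumors, in CPM on a log axis, by group (rows, 2 tumors each). Circles are replicate 1, triangles replicate 2 and black lines group means, and the horizontal line separates 1 dose from 2 doses; Socs1 with PBS falls from 5.86 and 8.04 CPM in the upper rows to 0.980 and 1.40 CPM in the lower ones.

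The other 4 members, linked mainly to growth factor receptors, varied far less. Socs4 (ENSMUSG00000048379, chr14:47276931-47296102, plus strand) ranged from 19.1 to 37.3 CPM, Socs5 (ENSMUSG00000037104, chr17:87107679-87137839, plus strand) from 15.4 to 24.4 CPM and Socs6 (ENSMUSG00000056153) from 23.8 to 39.9 CPM over all 18 tumors. The ratios of their highest to lowest group means were 1.40, 1.53 and 1.41. PBS tumor 2 after 2 doses was at 19.1 CPM for Socs4 and 25.04 CPM for Socs6, against 37.3 and 39.9 CPM in its partner, and tumor 2 of the group of unlabelled amount was at 15.4 CPM for Socs5 and 23.8 CPM for Socs6.

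Socs7 (ENSMUSG00000038485, chr11:97362551-97398542, plus strand) was between 32.4 and 52.5 CPM in 17 tumors. The remaining tumor, CDN2 (20 µg) tumor 1 after 2 doses, was at 119.5 CPM, and its partner at 45.8 CPM. After 1 dose the exoCDN2 tumors (47.3 and 52.5 CPM) and the CDN2 (20 µg) tumors (49.1 and 50.7 CPM) lay above PBS (36.6 and 37.1 CPM). Neither difference was called.

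**Figure D2:**
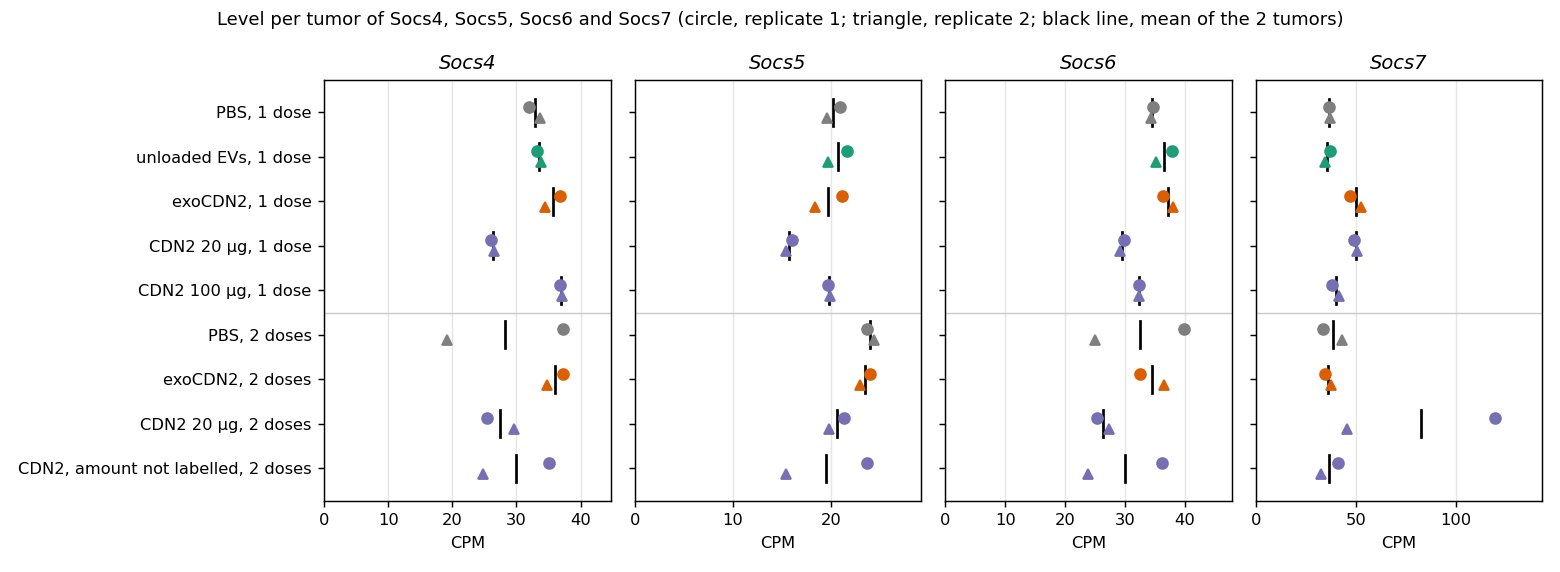
Level of Socs4, Socs5, Socs6 and Socs7 in each of 18 tumors, in CPM on a linear axis from 0, by group (rows, 2 tumors each), with circles for replicate 1, triangles for replicate 2 and black lines for group means. Socs7 in CDN2 (20 µg) tumor 1 after 2 doses, at 119.5 CPM, lies apart from the other 17 tumors (32.4 to 52.5 CPM).

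Per kilobase of exon, the order of the members within PBS tumors after 1 dose was Socs3 (7.29 CPM per kb), Socs7 (5.07), Socs4 (4.78), Socs5 (3.16), Socs6 (3.04), Socs1 (2.39), Socs2 (0.371) and Cish (0.313). With exoCDN2 after 1 dose Socs3 still led, at 29.5 CPM per kb, and Socs1 was next at 18.8 CPM per kb, ahead of Socs7 at 6.87 CPM per kb. Socs2 and Cish stayed the scarcest, at 1.64 and 1.41 CPM per kb. With PBS after 2 doses Socs1 fell among them, at 0.409 CPM per kb.

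The first comparison asked what 1 dose of each agent did relative to PBS. A call required a ratio over 2 together with an adjusted p under 0.05, from the quasi-likelihood test of edgeR, adjusted across all genes tested by the Benjamini-Hochberg method. With exoCDN2, 4 of 8 members rose and none fell, in a comparison that called 2.62% of all genes tested. Socs1 rose 7.85-fold (log2 fold change 2.97 ± 0.44 SE, adjusted p = 0.00265), Cish 4.50-fold (2.17 ± 0.46, adjusted p = 0.0229), Socs2 4.43-fold (2.15 ± 0.32, adjusted p = 0.00266) and Socs3 4.05-fold (2.02 ± 0.42, adjusted p = 0.0215). Socs7 had a log2 fold change of 0.44 ± 0.31 (adjusted p = 0.565), and Socs4, Socs5 and Socs6 lay between -0.04 and 0.12. The median over the 8 members was 1.23 on the log2 scale, against -0.02 over all genes. Neutrophil markers summed to 36.0 to 58.7 CPM in these tumors against 4.42 to 4.69 CPM with PBS (2 of 5 called higher), and keratinocyte markers to 0.529 to 2.04 against 66.2 to 123 CPM (none called). Their part in the members' levels was not tested. The log2 fold change was 1.96 to 2.08 for Socs3 and 2.12 to 2.22 for Cish with single tumors left out, and both calls were lost without any one of the 4 tumors (edgeR adjusted p from 0.0871 to 0.205 for Socs3 and 0.0904 to 0.220 for Cish). The call of Socs1 was lost without PBS tumor 1 (adjusted p = 0.0623 in edgeR) and that of Socs2 without PBS tumor 2 (adjusted p = 0.0613 in edgeR).

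With CDN2 (20 µg), the same 4 of 8 members rose, where 3.14% of all genes were called. Socs1 rose 9.17-fold (log2 3.20 ± 0.45, edgeR adjusted p = 0.00173), Cish 5.66-fold (2.50 ± 0.47, adjusted p = 0.0102), Socs3 3.83-fold (1.94 ± 0.42, adjusted p = 0.0224) and Socs2 2.62-fold (1.39 ± 0.32, adjusted p = 0.0277). Neutrophil markers summed to 12.1 to 28.3 CPM in these tumors (1 of 5 called higher) and endothelial markers to 30.1 to 32.3 CPM against 82.1 to 84.4 CPM with PBS (3 of 4 called lower), and their part in the members' levels was not tested. Socs1 was called with each tumor left out in turn. Socs2, Socs3 and Cish lost the call without CDN2 (20 µg) tumor 2 and without either PBS tumor (edgeR adjusted p from 0.0930 to 0.236). Socs5 had a log2 fold change of -0.36 ± 0.13 that did not pass the correction (edgeR adjusted p = 0.167).

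With CDN2 (100 µg), 2 of 8 members rose and 2.44% of all genes were called. Socs1 rose 3.53-fold (log2 1.82 ± 0.43, edgeR adjusted p = 0.0423) and Socs2 3.38-fold (1.76 ± 0.32, adjusted p = 0.0115). Cish at 1.62 ± 0.46 (adjusted p = 0.0910) and Socs3 at 1.24 ± 0.41 (adjusted p = 0.157, edgeR for both) did not pass. T cell markers summed to 1.68 to 1.78 CPM in these tumors against 7.72 to 9.88 CPM with PBS (3 of 7 called lower). Their part in the members' levels was not tested. The call of Socs1 was lost without any one of the 4 tumors (edgeR adjusted p from 0.121 to 0.353), and that of Socs2 without CDN2 (100 µg) tumor 1 or either PBS tumor (0.0814 to 0.155). With unloaded EVs, 0 of 8 members were called, as were 0% of all genes by edgeR, with 540 genes at an unadjusted p under 0.05 and 36 genes called by DESeq2. Socs1 was the member with the largest difference, a log2 fold change of -0.89 ± 0.43 (95% interval -1.84 to 0.05, edgeR adjusted p = 1).

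**Figure D3:**
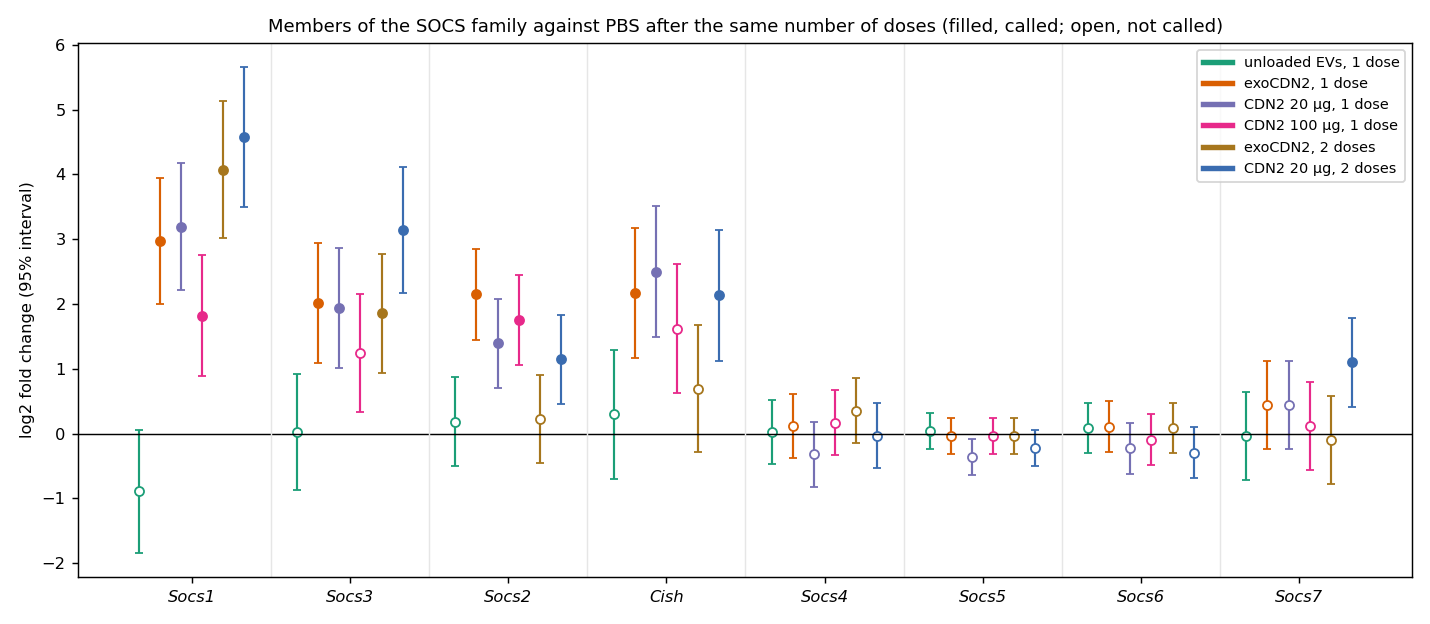
Log2 fold change of the 8 members against PBS after the same number of doses (vertical axis), with 95% intervals from edgeR, 2 tumors per group. Filled points passed the call and open points did not; Socs1 is filled with every agent except unloaded EVs, and Socs4, Socs5 and Socs6 are open throughout.

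ExoCDN2 was also set against its vehicle, the unloaded EVs, where 4 of 8 members rose and 2.95% of all genes were called. Socs1 differed by 3.87 ± 0.47 on the log2 scale (edgeR adjusted p = 0.000461), Socs3 by 2.00 ± 0.42 (adjusted p = 0.0213), Socs2 by 1.97 ± 0.32 (adjusted p = 0.00428) and Cish by 1.87 ± 0.46 (adjusted p = 0.0455). Socs1 and Socs2 kept the call without any single tumor, and Socs3 and Cish lost it without any one of the 4 (edgeR adjusted p from 0.0643 to 0.251). In the fit with a replicate block the adjusted p of Cish was 0.0562 (edgeR).

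Between the vesicle-loaded and the free form after 1 dose, at 0.1 and 20 µg, 0 of 8 members were called by edgeR or by DESeq2. EdgeR called 0.608% of all genes and DESeq2 386 genes, and 3300 genes had an unadjusted p under 0.05 in edgeR. The closest member was Socs2, higher with exoCDN2 by 0.76 ± 0.31 (95% interval 0.09 to 1.42, edgeR adjusted p = 0.204). The intervals of the difference on the log2 scale were -1.11 to 0.66 for Socs1, -0.81 to 0.97 for Socs3 and -1.28 to 0.62 for Cish. Between 100 and 20 µg of free CDN2, again 0 of 8 members were called by edgeR, with 0.455% of all genes called and 2797 genes at an unadjusted p under 0.05. Socs1 was lower at 100 µg by 1.38 on the log2 scale (SE 0.42, edgeR adjusted p = 0.132), and DESeq2, which called 403 genes in all, called it with an adjusted p of 0.0318. Endothelial markers summed to 79.3 to 107 CPM at 100 µg and 30.1 to 32.3 CPM at 20 µg (3 of 4 called higher at 100 µg). Their part in the Socs1 level was not tested.

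The same comparisons with PBS were made after 2 doses. With exoCDN2 against PBS, 2 of 8 members rose in a comparison with 11.3% of all genes called. Socs1 rose 16.9-fold (log2 4.08 ± 0.49, edgeR adjusted p = 0.000200) and Socs3 3.62-fold (1.85 ± 0.42, adjusted p = 0.00999). Cish (0.69 ± 0.45, adjusted p = 0.330) and Socs2 (0.23 ± 0.31, adjusted p = 0.673, both edgeR) were not called. Against the 4 PBS tumors of both schedules pooled, Socs1 had a log2 fold change of 2.30 (edgeR adjusted p = 0.0260). Socs1 kept the call without any single tumor, while Socs3 lost it without exoCDN2 tumor 1 or either PBS tumor (edgeR adjusted p from 0.0567 to 0.119). The family median was 0.29 on the log2 scale, against 0.01 over all genes. Summed T cell markers were at 30.6 to 39.7 CPM in these tumors against 1.16 to 2.57 CPM with PBS (6 of 7 called higher). Summed macrophage markers were at 482 to 688 against 198 to 229 CPM (3 of 6 called higher). NK cell markers summed to 18.8 to 26.1 against 1.01 to 2.16 CPM (4 of 4). Neutrophil markers summed to 17.4 to 56.8 against 1.53 to 1.9 CPM (4 of 5). Their part in the Socs1 and Socs3 levels was not tested.

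With CDN2 (20 µg), 5 of 8 members rose, where 30.6% of all genes were called. Socs1 rose 23.8-fold (log2 4.57 ± 0.50, edgeR adjusted p = 5.6e-05), Socs3 8.83-fold (3.14 ± 0.44, adjusted p = 0.000228), Cish 4.38-fold (2.13 ± 0.46, adjusted p = 0.00287), Socs2 2.21-fold (1.15 ± 0.32, adjusted p = 0.0106) and Socs7 2.15-fold (1.10 ± 0.31, adjusted p = 0.0125). Against the 4 PBS tumors pooled, the log2 fold change of Socs1 was 2.80 (edgeR adjusted p = 0.00296). Without CDN2 (20 µg) tumor 1 only Socs1 (log2 3.75, edgeR adjusted p = 8.67e-05) and Socs3 (2.24, adjusted p = 0.000589) were called. The log2 fold change was then 0.97 for Cish (edgeR adjusted p = 0.0269, a ratio under 2), 0.55 for Socs2 (adjusted p = 0.130) and 0.24 for Socs7 (adjusted p = 0.249). Socs2 was also lost without PBS tumor 2 (edgeR adjusted p = 0.0852) and Socs7 without PBS tumor 1 (0.0941). Neutrophil markers summed to 189 to 834 CPM in this group against 1.53 to 1.90 CPM with PBS, and 5 of 5 of them were called higher. T cell markers summed to 9.75 to 11.9 against 1.16 to 2.57 CPM (5 of 7 called higher). NK cell markers summed to 7.84 to 10 against 1.01 to 2.16 CPM (2 of 4). Macrophage markers summed to 465 to 893 against 198 to 229 CPM (4 of 6). The part of these markers in the members' levels was not tested.

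The 2 forms differed after 2 doses in 3 of 8 members, where 19.4% of all genes were called, all 3 lower with exoCDN2 than with CDN2 (20 µg). The log2 difference was -1.44 ± 0.45 for Cish (edgeR adjusted p = 0.0273), -1.29 ± 0.41 for Socs3 (adjusted p = 0.0305) and -1.20 ± 0.32 for Socs7 (adjusted p = 0.0135). Socs2 passed the p limit but not the ratio (-0.92 ± 0.31, adjusted p = 0.0380 in edgeR), and Socs1 did not pass (-0.50, 95% interval -1.40 to 0.40, and 0.31 without CDN2 (20 µg) tumor 1). None of these differences remained called without CDN2 (20 µg) tumor 1. They were then -0.29 for Cish (edgeR adjusted p = 0.538), -0.40 for Socs3 (0.445) and -0.36 for Socs7 (0.136). Leaving out exoCDN2 tumor 2 also ended all 3 calls (edgeR adjusted p from 0.0701 to 0.208), and leaving out exoCDN2 tumor 1 ended that of Socs7 (0.0717).

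**Figure D4:**
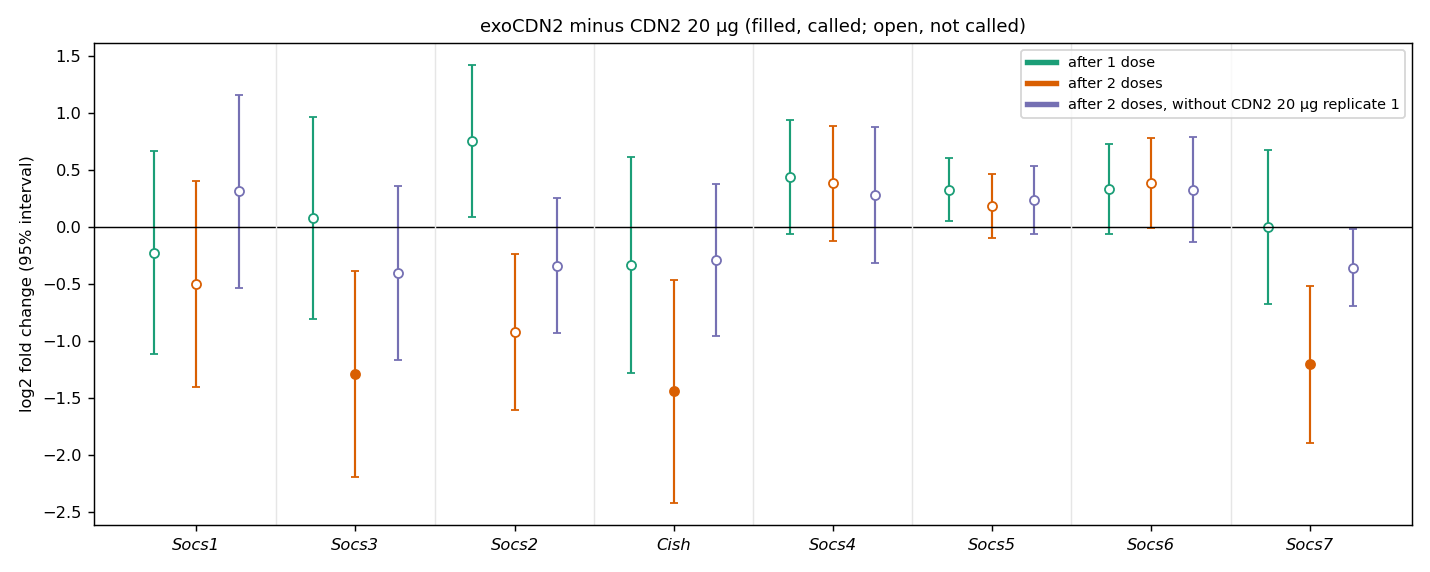
Log2 difference between exoCDN2 and CDN2 (20 µg) for the 8 members (vertical axis, exoCDN2 minus CDN2, 95% intervals from edgeR) after 1 dose, after 2 doses, and after 2 doses without CDN2 (20 µg) tumor 1. Filled points passed the call; Socs3, Cish and Socs7 are filled after 2 doses and open once that tumor is left out.

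The group that received 2 doses of CDN2 in an unlabelled amount was compared with PBS in a fit of all 18 tumors. In this fit 1 of 8 members rose and 0.959% of 17110 genes were called. Socs1 rose 7.16-fold (log2 2.84 ± 0.45, edgeR adjusted p = 0.00507), and Socs3 was at 0.87 ± 0.39 (adjusted p = 0.463). Without PBS tumor 2 the adjusted p of Socs1 was 0.0666, and against the 4 PBS tumors of both schedules pooled its log2 fold change was 1.06 (adjusted p = 0.654, edgeR).

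Socs1 also differed between the PBS groups, whose tumors are shared by the comparisons above. Of the 8 members, 1 fell and none rose, with 1.1% of all genes called. Socs1 was lower after 2 doses of PBS by 2.55 on the log2 scale (SE 0.47, edgeR adjusted p = 0.0195), while Socs3 had a change of -0.57 ± 0.41 (adjusted p = 0.753) and the other 6 members lay between -0.22 and 0.25. The call was lost without PBS tumor 2 of the 1-dose group or either tumor of the 2-dose group (edgeR adjusted p from 0.0971 to 0.150). In the same comparison Stat2 (-1.38 ± 0.20) and the interferon brake Usp18 (-2.51 ± 0.22) fell as well, both with edgeR adjusted p values under 0.05. Ifng, the gene of interferon-γ, was at 0.940 and 1.54 CPM after 1 dose of PBS and at 0.0408 and 0 CPM after 2. Summed T cell markers were at 7.72 to 9.88 CPM and then at 1.16 to 2.57 CPM, and summed keratinocyte markers at 66.2 to 123 CPM and then at 0.328 to 0.714 CPM. Their part in the Socs1 level was not tested. Against all 4 PBS tumors pooled, the log2 fold change of Socs1 after 1 dose was 3.74 with exoCDN2, 3.97 with CDN2 (20 µg) and 2.59 with CDN2 (100 µg).

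The last question was whether a second dose repeated the first. With exoCDN2, 2 of 8 members were lower after 2 doses than after 1 dose, with 7.44% of all genes called. Socs2 fell by 1.76 on the log2 scale (SE 0.31, edgeR adjusted p = 0.00544) and Socs1 fell by 1.44 (SE 0.42, adjusted p = 0.0430). Cish was at -1.33 ± 0.44 (adjusted p = 0.0724, edgeR), which DESeq2 called (adjusted p = 0.0229). The call of Socs1 was lost without any one of the 4 tumors (edgeR adjusted p from 0.0804 to 0.206) and with the replicate block (0.0595), and that of Socs2 without exoCDN2 tumor 1 of the 1-dose group (0.0576). With CDN2 (20 µg), 1 of 8 members fell, with 20.8% of all genes called. Socs1 fell by 1.17 on the log2 scale (SE 0.42, edgeR adjusted p = 0.0455), a call lost without either tumor of the 1-dose group or tumor 2 of the 2-dose group (adjusted p from 0.0520 to 0.216). It was also lost with the replicate block (0.0600), while Socs5 passed the p limit with a small change (0.39 ± 0.13, adjusted p = 0.0332). Without CDN2 (20 µg) tumor 1 of the 2-dose group Cish was called lower (-1.39, edgeR adjusted p = 0.0119), and without tumor 2 Socs3 (1.13, adjusted p = 0.0163) and Socs7 (1.21, adjusted p = 7.81e-05) were called higher.

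Relative to the change in PBS, the exoCDN2 effect differed between 1 and 2 doses in 1 of 8 members, with 6.82% of all genes called. This was Socs2, whose effect was smaller after 2 doses by 1.92 on the log2 scale (SE 0.44, edgeR adjusted p = 0.0211). Cish did not pass (difference -1.48 ± 0.64, edgeR adjusted p = 0.193). The effect on Socs1, 2.97 after 1 dose and 4.08 after 2, did not pass this test (difference 1.10, 95% interval -0.24 to 2.44, edgeR adjusted p = 0.330). Its mean level was 54.6 CPM after 1 dose of exoCDN2 and 20.1 CPM after 2, and 6.95 and 1.19 CPM with PBS. For CDN2 (20 µg) edgeR called 0 of 8 members, with 16.8% of all genes called and Socs1 alone of the members at an unadjusted p under 0.05 (difference 1.38, adjusted p = 0.126). Without tumor 1 of the 2-dose group Cish was called in this test (-1.55, edgeR adjusted p = 0.0252), and without tumor 2 Socs1 (1.84), Socs3 (1.69) and Socs7 (1.13) were.

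The signals upstream of the family moved in these tumors too. Ifnb1, the gene of interferon-β, was at 0.131 and 0.119 CPM with PBS after 1 dose, 23.9 and 19.9 CPM with exoCDN2 and 13.9 and 54.4 CPM with CDN2 (20 µg). After 2 doses it was at 0.136 and 0.0423 CPM with exoCDN2, at 10.4 and 1.06 CPM with CDN2 (20 µg) and at 0 in both PBS tumors. Il6, the prototype ligand of the receptor subunit that SOCS3 restrains, was at 0.241 and 0.317 CPM with PBS, 42.1 and 35.6 CPM with exoCDN2 and 19.0 and 53.9 CPM with CDN2 (20 µg) after 1 dose. After the second dose Il6 was at 2.20 and 0.550 CPM with exoCDN2 and 38.0 and 5.28 CPM with CDN2 (20 µg). Both ligands were lower in exoCDN2 tumors after 2 doses than after 1. The mean of Socs3 in exoCDN2 tumors was 85.3 CPM after 1 dose and 51.4 CPM after 2, a difference that was not called. The part of these ligands in the members' levels was not tested. Ifng was above its PBS level with exoCDN2, at 4.50 and 8.09 CPM after 1 dose and 5.10 and 3.18 CPM after 2. Its difference from PBS was called only after 2 doses.

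The counts of pathway genes against PBS that follow stand beside shares of 2.62% (exoCDN2) and 3.14% (CDN2, 20 µg) of all genes called after 1 dose, and 11.3% and 30.6% after 2. Among the 7 interferon ligands tested, 3 rose after 1 dose of exoCDN2 and 3 after CDN2 (20 µg), Ifnb1, Ifna2 and Ifna4 in both. After 2 doses, 1 rose with exoCDN2 (Ifng) and 2 with CDN2 (Ifnb1 and Ifng). Of 16 other cytokines that signal through JAK and STAT, 4 and 5 rose after 1 dose, led by Il6, Lif and Il27 in each. After 2 doses 4 rose with exoCDN2, among them Osm (log2 3.94 ± 0.89), and 13 with CDN2, led by Osm (8.03 ± 0.99), an IL-6 family cytokine made by myeloid cells. Of 32 receptors, 4 rose after 1 dose of exoCDN2 (Osmr, Il2ra and Il15ra among them) and 1 after CDN2, and 20 and 23 rose after 2 doses, with 1 lower in each (Epor, -1.46 ± 0.46 with exoCDN2 and -1.28 ± 0.48 with CDN2). Without CDN2 (20 µg) tumor 1, the median log2 fold change with 2 doses of CDN2 was 3.444 over the 18 other cytokines then tested, with Osm at 6.27 ± 0.72. Over the 32 receptors the median was 1.507 (2.126 with that tumor), with Epor at -1.11 ± 0.57, which was not called.

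Between the receptors and the target genes stand the kinases and the STATs. Of 4 JAK kinases, Jak2 rose with 1 dose of exoCDN2 (1.22 ± 0.26), Jak3 (1.51 ± 0.24) and Jak2 (1.23 ± 0.26) with 2 doses, and Jak3 with 2 doses of CDN2 (1.11 ± 0.24). Stat2 rose after 1 dose, by 2.47 ± 0.20 with exoCDN2 and 2.21 ± 0.20 with CDN2. After 2 doses of either form Stat2 (3.45 ± 0.21 and 3.02 ± 0.21) and Stat3 (1.35 ± 0.18 and 1.09 ± 0.18) rose. With CDN2, Stat3 was at 0.99 ± 0.20 without tumor 1, a ratio under 2.

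The target genes of STAT3 and STAT5 were counted beside the SOCS members that share those STATs. Of 9 STAT3 targets, 5 rose after 1 dose of exoCDN2 and 5 after 1 dose of CDN2 (20 µg), and 8 and 9 rose after 2 doses. Between the 2 forms after 2 doses, where 19.4% of all genes were called, 6 were lower with exoCDN2. These were led by Fos (-1.53 ± 0.25, and -1.13 without CDN2 tumor 1), Cebpd (-2.46 ± 0.44, and -1.60) and Junb (-1.86 ± 0.34, and -1.11). Of 8 STAT5 targets, 1 and 2 rose after 1 dose and 5 and 6 after 2, and 4 were lower with exoCDN2 than with CDN2 after 2 doses. With 2 doses of exoCDN2, 6 of 7 T cell markers and 4 of 4 NK cell markers were also called higher than with PBS. With 2 doses of CDN2 (20 µg), 5 of 7 and 2 of 4 were. Their part in these counts was not tested. Without CDN2 (20 µg) tumor 1, the median log2 fold change with 2 doses of CDN2 was 2.695 for STAT3 and 2.065 for STAT5 targets (3.462 and 2.46 with that tumor). The median differences between exoCDN2 and CDN2 were then -1.106 and -0.06 (-1.858 and -0.748 with that tumor).

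Other brakes on the same pathway were mostly not called. Of 13, 1 rose after 1 dose of either form, Usp18, a protease that restrains the type I interferon receptor (4.16 ± 0.23 with exoCDN2 and 3.87 ± 0.23 with CDN2). After 2 doses it rose by 5.62 ± 0.25 and 6.57 ± 0.26, together with the leukocyte phosphatases Ptprc and Ptpn6 among 4 genes with exoCDN2 and with Ptprc and Cblb with CDN2. Without CDN2 (20 µg) tumor 1, the median log2 fold change of the 13 with 2 doses of CDN2 was 0.151 (0.434 with that tumor). Cblb was then at 0.45 ± 0.18 and was not called. Of 7 genes for the machinery that the SOCS box recruits, 2 rose after 2 doses of CDN2, the elongin B gene Elob (1.25 ± 0.17) and the RING protein gene Rbx1 (1.09 ± 0.18), a share near the 30.6% of all genes called. Elob was at 0.96 ± 0.14 and Rbx1 at 0.74 ± 0.13 without CDN2 (20 µg) tumor 1, both ratios under 2. Of 18 other genes with a SOCS box, 1 rose after 1 dose of either form, Spsb1 (1.53 ± 0.27 with exoCDN2 and 1.25 ± 0.27 with CDN2). After 2 doses 3 were higher and 1 lower with exoCDN2, where 11.3% of all genes were called. With CDN2, where 30.6% were called, 5 were higher and 2 lower. Spsb1 was among the higher genes after 2 doses of each form (1.67 ± 0.27 and 1.77 ± 0.27). Of 12 substrates and partners of SOCS proteins, 0 were called after 1 dose of exoCDN2 and 1 was lower after 1 dose of CDN2. After 2 doses 1 was lower with exoCDN2, and 2 were higher and 4 lower with CDN2. The receptor gene Kit was lower with CDN2 after 1 dose (-1.47 ± 0.31) and with exoCDN2 (-1.31 ± 0.30) and CDN2 (-1.62 ± 0.31) after 2. Summed melanocyte markers were at 21900 to 22100 CPM after 1 dose of CDN2, against 19700 to 20200 CPM with PBS. After 2 doses they were at 14500 to 15700 CPM with exoCDN2 and 7210 to 12500 CPM with CDN2, against 23100 to 23300 CPM with PBS. Their part in the Kit level was not tested.

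**Figure D5:**
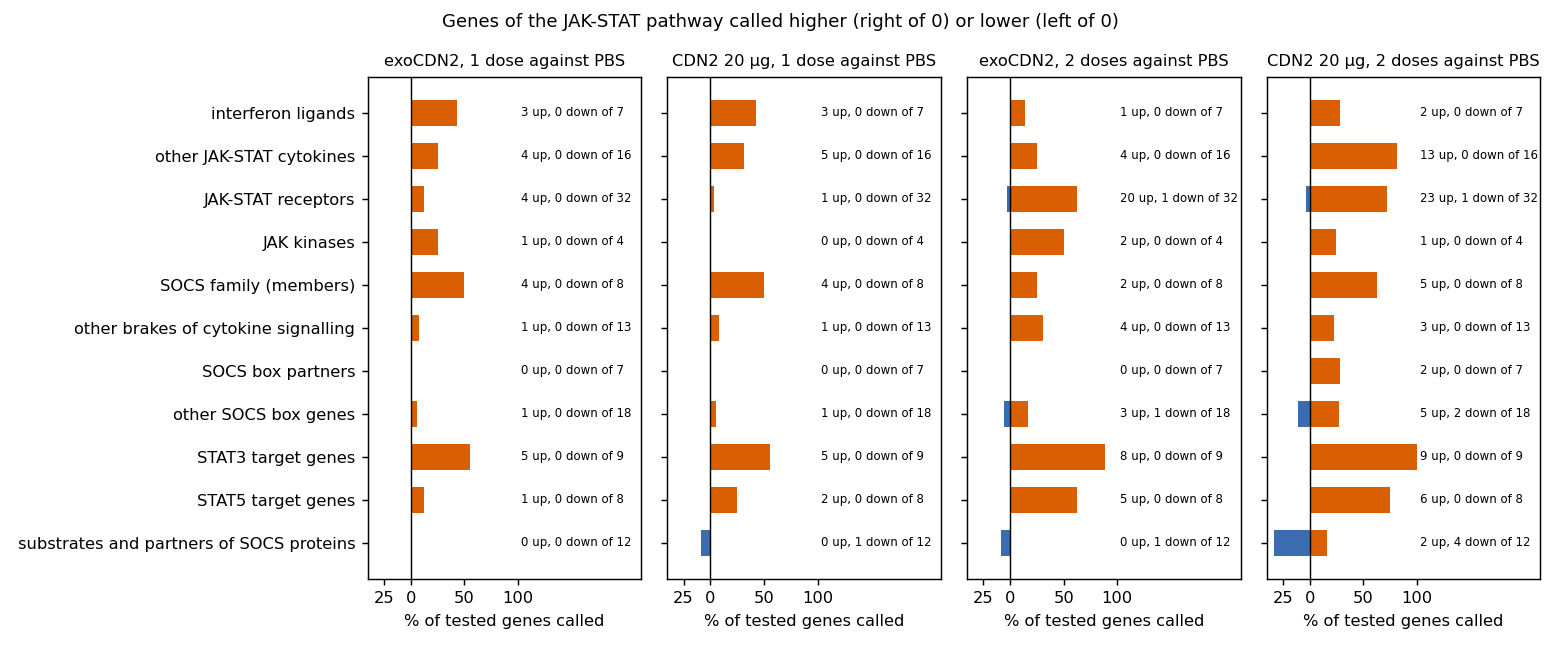
Percent of the tested genes in lists of the JAK-STAT pathway called higher (orange, right of 0) or lower (blue, left of 0) than PBS by edgeR, with the counts printed beside each bar, for exoCDN2 and CDN2 (20 µg) after 1 and 2 doses. The bars of the receptors lengthen from 4 and 1 of 32 after 1 dose to 20 and 23 of 32 after 2, while those of the SOCS members go from 4 and 4 to 2 and 5 of 8. The last count rests in part on CDN2 (20 µg) tumor 1. Without it the median log2 fold change of the members was 0.393 in place of 1.124, and that of the receptors 1.507 in place of 2.126.

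Across the 16 tumors of labelled amount, Socs1, Socs2, Socs3 and Cish moved together, with Pearson r of log2 CPM from 0.788 (Socs1 and Socs2) to 0.920 (Socs3 and Cish). Socs4 and Socs6 had r = 0.802 with each other, and Socs1 and Socs5 had r = -0.610. These are descriptions over tumors that share groups and libraries. Among 11754 genes with a mean log2 CPM over 1, the genes most like Socs1 were Gbp5 (r = 0.986), an interferon-induced GTPase, Parp10 (0.978) and Clec2d (0.976). Those most like Socs3 were Il15 (0.976), the cytokine, Icam1 (0.976), an adhesion molecule, and Gm49342 (0.974). Those most like Socs2 were the JAK phosphatase gene Ptpn2 (0.953), Il6 (0.946) and Relb (0.936), and those most like Cish were Stx11 (0.983), March5 (0.962) and the cytokine gene Lif (0.960). For Socs7 they were Marcksl1 (0.943), Rab20 (0.942) and Msra (0.932), and without the 2 tumors farthest from its median these fell to 0.873, 0.730 and 0.628. For the other 4 members the values without the 2 farthest tumors were 0.912 or higher.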

How the data were processed

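The authors sequenced RNA from 18 B16F10 tumors. Reads were mapped by OSA (OmicSoft ArraySuite, GRCm38) and quantified by RSEM against the Ensembl R88 annotation. The values deposited by the authors are expected counts, without normalization, of which 8.75% to 12.7% per tumor were not whole. Whether counting used strand is not given in the sources used here. The submitters' processing notes name mm10 and RSEM. The labels write CL656 for CDN2.

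Expected counts were rounded and fitted with edgeR 4.0.16 (R 4.3.3). Genes passed filterByExpr (minimum count 10, minimum total 15), TMM factors scaled the libraries, and a single quasi-likelihood fit to 16 tumors gave each group its own mean, leaving 8 residual degrees of freedom. The 2 tumors of unlabelled amount entered only a second fit, of all 18. Adjustment for multiple tests (Benjamini-Hochberg) covered every gene tested. With 2 tumors against 2 an exact permutation test cannot go below p = 0.333, so none was used. On simulated counts with the depths of these tumors the fit was checked before use. Symbols came from GENCODE M21 (50376 of 50600 identifiers).

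The members and gene lists were chosen with earlier results of these data known. Named genes were all 8 members, at most 3 genes each way per list and comparison with the smallest p among those called, and the 3 genes most like each called member. Alternatives were DESeq2 1.42.0, RLE factors, no filter, only the groups compared, all 18 tumors, pooled PBS, no ratio limit, the replicate number as a block, and each tumor left out. Counts and named genes of the lists without CDN2 (20 µg) tumor 1 were added after seeing the data. 1 gene and its list of targets are not reported here.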

Additional observations from a re-analysis of the deposited data

Results flagged for a closer look

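The effect of exoCDN2 on Socs2 relative to PBS differed between 1 and 2 doses by the interaction term of the edgeR model (log2 difference -1.92 ± 0.44 SE, adjusted p = 0.0211). Socs2 was at 16.2 and 15.2 CPM after 1 dose of exoCDN2 and at 5.34 and 3.92 CPM after 2, with PBS at 3.72 and 3.35 CPM and then at 4.73 and 3.15 CPM. The difference lay between -1.60 and -2.18 without single tumors, and the call was lost without either exoCDN2 tumor of the 1-dose group, either PBS tumor of that group, exoCDN2 tumor 2 or PBS tumor 1 of the 2-dose groups (adjusted p from 0.0570 to 0.0977, edgeR).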

How the results depend on the processing

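Of 1392 member values recomputed under the alternatives, 1287 kept their side of the threshold, 79 lost a call, 26 gained one and 0 changed sign while called. The number of members called moved by over 1.5 times as follows. For CDN2 (100 µg) against PBS (2 members) it was 4 with the 4 PBS tumors pooled, 4 without the filter, 4 with only the groups compared and 1 with the replicate block. For 100 against 20 µg (0) it was 1 with DESeq2, 1 without the filter and 1 with only the groups compared. With only the groups compared it was 3 for CDN2 (20 µg) against PBS after 2 doses (5) and 0 for exoCDN2 against CDN2 after 2 doses (3). Between 2 doses and 1 dose it was 1 with the replicate block for exoCDN2 (2; 3 with DESeq2, without the filter and with only the groups compared), and for CDN2 (20 µg) (1) it was 0 with only the groups compared, 0 with the block, 0 with RLE factors and 2 with no ratio limit. For the dose effect relative to PBS it was 3 without the filter and 2 with only the groups compared for exoCDN2 (1), and 2 without the filter for CDN2 (0). It was 0 for the unlabelled amount (1) with the PBS tumors pooled. With the longest transcript as length, 4 of 8 members kept their rank per kilobase. The number called over all genes moved with these settings too. For exoCDN2 against PBS after 1 dose edgeR called 444 of 16927 genes in the main fit and 1300 of 15499 with only the groups compared. It called 1166 of 28330 without the filter and 685 of 16927 with the PBS tumors pooled. Shares of all genes under the alternatives are not given for the other comparisons, so these counts are not read as results about the members. The cause of the changes in the counts was not tested.

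With single tumors left out, the members called ranged from 1 to 2 for exoCDN2 against PBS after 1 dose, 1 to 4 for CDN2 (20 µg), 0 to 1 for CDN2 (100 µg) and 2 to 2 for exoCDN2 against EVs. After 2 doses they ranged from 1 to 2 for exoCDN2, 2 to 5 for CDN2 (20 µg), 0 to 4 between them and 0 to 1 for the unlabelled amount. Between doses they ranged from 0 to 1 for PBS, 0 to 1 for exoCDN2 and 0 to 2 for CDN2, and relative to PBS from 0 to 1 for exoCDN2 and 0 to 3 for CDN2. A lone tumor left in a group was assumed to vary like the other groups. No shares of all genes stand beside these ranges, so they are not read as results about the members.

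Same-numbered tumors had a median correlation of deviations of -0.005 over 36 pairs of groups (-0.183 to 0.322, over 0.1 in 7). The highest value was between exoCDN2 and CDN2 (20 µg) after 2 doses. A median over all pairs cannot exclude a pairing shared by some groups. The replicate block ended 4 member calls, Socs1 for CDN2 (100 µg) against PBS (edgeR adjusted p = 0.0619) and between doses of exoCDN2 (0.0595) and CDN2 (0.0600), and Cish for exoCDN2 against EVs (0.0562, which left 3 of 4 calls).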
